A study of Homo sapiens with 48 samples.

Results

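The levels of 5 genes tied to the actin skeleton were followed through the series: ACTB (beta-actin), TAGLN (transgelin), TMSB10 (thymosin beta 10), CYR61 (cysteine-rich angiogenic inducer, also called CCN1) and TM4SF1 (a cell-surface tetraspan protein). They were taken by symbol, as every probe that carried one of these names, which gave 14 of the 1113 probes and 5 of the 452 genes on the panel. RNA was measured by RASL-Seq, in which neighbouring DNA probe pairs are ligated on captured polyadenylated RNA and the ligated products are amplified and sequenced. The 48 libraries came from WA09 (H9), an established line of human embryonic stem cells, and form 6 groups. Embryoid bodies (EBs, floating aggregates of differentiating stem cells) were started from dissociated cells at 20000 per well in E6 medium and kept for 7 days. For the first 24 hours the cells of 16 libraries received Y-27632 (Y27 EB) and those of 16 others CEPT (CEPT EB). Y-27632 is a single small molecule, and CEPT is a mixture of chroman 1, emricasan, polyamines and trans-ISRIB. Both arms therefore had added compounds on the first day, and no EB group without any was analysed here. The other groups had 4 libraries each. They were hESC, which had no differentiation treatment, ectoderm, made in 6 days in E6 medium with 100 nM LDN-193189 and 2 µM A83-01, and mesoderm and endoderm, each made with a commercial kit in 5 days.

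Actin exists in cells as free monomers and as filaments. When monomers are used up, the cofactor MRTF is released from them, enters the nucleus and switches on genes with serum response factor (SRF), ACTB and TAGLN among them. Tension in the actin skeleton also lets YAP and TAZ enter the nucleus, where they act with TEAD factors on targets such as CYR61. ACTB encodes the filament's subunit, TAGLN an actin-binding protein of smooth muscle and other contractile cells, and TMSB10 a small peptide that binds actin monomers. CYR61 encodes a secreted matrix protein, and TM4SF1 a membrane protein known from endothelial and epithelial tumour cells.

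Promoter sequence was matched by symbol in RefSeq (GRCh38.p14) for 2 of the 5 genes, TMSB10 and TM4SF1, and both are shown because these are the genes whose levels differed between the EB arms. ACTB, TAGLN and CYR61 were not matched. GGAATG, the core letters bound by TEAD factors, was searched on both strands (CATTCC on the other), and capitals mark each match. The CArG box that SRF binds was searched as well; its closing letters can overlap the opening letters of GGAATG. The first line is the 219 bases upstream of the TMSB10 start in GENCODE 29 (chr2:84905406-84905624, plus strand), and the others are 30-base windows around both matches near the TM4SF1 start (chr3:149377754-149377783 and chr3:149377650-149377679, minus strand), which lie inside the longer first exon that GENCODE 29 annotates.
TMSB10 upstream: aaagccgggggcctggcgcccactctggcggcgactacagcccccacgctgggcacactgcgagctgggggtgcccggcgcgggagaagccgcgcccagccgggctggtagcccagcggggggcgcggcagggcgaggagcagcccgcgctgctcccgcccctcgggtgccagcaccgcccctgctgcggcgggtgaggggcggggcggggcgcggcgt
TM4SF1 stretch 1: tgaagggcgggaCATTCCccctgcctcttc
TM4SF1 stretch 2: gtatttaagaggtagcaGGAATGggctgag
The TM4SF1 matches begin 122 and 13 bases before the RefSeq start. In windows of 250 bases before the start, 11.9% of 35116 promoters held at least 1 GGAATG and 0.940% held at least 2, as TM4SF1 did. TMSB10 held 0 matches, with 31 CG pairs and 78.0% G and C, against 4 CG pairs and 50.8% G and C in TM4SF1. Neither window held a CArG box, which 1.16% of promoters did. These are matches of letters only, and binding was not measured.

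Each gene was read by 2 or 3 probes, which share the RNA and are not replicates. Positions below count from the 5′ end of the named RefSeq transcript, and gene coordinates are those of GENCODE 29 (GRCh38). The RefSeq start lay 31 bases inside the GENCODE 29 transcript for TMSB10 and 216 bases inside it for TM4SF1, so no exon or UTR was assigned to the probes. In ACTB (chromosome 7, 5527147 to 5563784, minus strand, NM_001101), probe 7 was at position 1346, probe 6 at 1480 and probe 5, the nearest of the 3 to the 3′ end, at 1565. In TMSB10 (chromosome 2, 84905625 to 84906675, plus strand, NM_021103), probe 732 was at position 227 and probe 733, nearer to the 3′ end, at 403. In TAGLN (chromosome 11, 117199321 to 117204782, plus strand), probes 1266 and 1267 were at positions 148 and 574 of NM_003186 and probe 1268 at position 972 of NM_001001522. In CYR61 (chromosome 1, 85580761 to 85583962, plus strand, NM_001554), probes 1175, 1176 and 1177 were at positions 547, 1341 and 1546. In TM4SF1 (chromosome 3, 149369022 to 149377865, minus strand, NM_014220), probes 1148, 1149 and 1150 were at positions 471, 942 and 1287. Probes differ in efficiency, so levels are compared between groups and never between genes. ACTB has close paralogs and pseudogenes, and how far its probes share reads with them is uncertain.

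Library totals ran from 379810 to 5577868 reads with a median of 3583316. A pair of EB libraries stood apart. The EB comparisons, the probe ratios and the correlation of those ratios were also computed without both, a choice made after the values were seen. The order of the groups and the correlations between genes were not computed without that pair. Y27 EB 15 had the lowest total, under 0.25 of the median. Within its arm it had the highest summed level of the mesoderm markers (3819 CPM against a median of 18.4), endothelial markers (185 against 21.3) and epithelial markers (780 against 125). CEPT EB 13 had the lowest total of its arm (1814266 reads), the lowest TAGLN level and no TM4SF1 read. Of the ectoderm and neural probes tested, 16 of 17 were called higher in ectoderm than in hESC. The mesoderm list had 7 of 7 in mesoderm and the endoderm list 7 of 7 in endoderm. Of all probes 43.2%, 34.0% and 38.4% were called higher there. In hESC, 5 of the 7 mesoderm and 8 of the 10 endoderm probes on the panel had 0 reads in all libraries. Such probes could pass the filter only through a lineage, which favoured a call. The 3 probes of AFP, a listed endoderm gene, had 0 reads in every endoderm library. Some markers were shared, as 4 of the 7 mesoderm probes were called higher in endoderm and 3 of the 7 endoderm probes in mesoderm. Of the 17 neural probes 5 were called higher and 9 lower in mesoderm, and 5 higher and 8 lower in endoderm. Levels are CPM, reads scaled to a common library size, on 1 scale for all 48 libraries, made with trimmed means of M-values (TMM), while each log2 fold change comes from the comparison's own fit and scale, so the ratio of 2 mean CPM values can differ from it. A probe was called where edgeR's quasi-likelihood test gave it an adjusted p under 0.05 (Benjamini-Hochberg, over all probes tested). The labels do not say whether libraries of a group came from separate cultures, so p-values measure the spread between these libraries, which may be technical. Reads are amplified products without molecular identifiers in the protocol, so limits set by low counts cover counting error only.

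Between the EB arms, TMSB10 and TM4SF1 were higher in CEPT EB, and the ACTB, TAGLN and CYR61 probes were not called. Of the 14 probes 12 passed the filter on low counts, and 3 of these 12 were called, each of them higher in CEPT EB. Over all 867 probes tested, 23.6% were called in either direction and 10.6% were called higher. The 3 called probes stand for 2 genes, and the members' median log2 fold change was 0.26 beside -0.04 over all probes. None of the 12 separated the arms completely: the libraries of both arms overlapped for each, and 0.115% of all probes did not overlap. In bulk lysates, fewer cells that express a gene and less of its RNA per cell cannot be told apart, here and below.

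TMSB10, the monomer-binding peptide, was read by both of its probes in all EB libraries. Probe 733 had a lowest, median and highest level of 1146, 2324 and 3979 CPM in CEPT EB and of 415, 1229 and 1967 CPM in Y27 EB. The highest CEPT EB libraries exceeded every Y27 EB library, and 15 of 16 exceeded the other arm's median. Its log2 fold change was 0.87 ± 0.18 (SE, n = 16 per arm, adjusted p = 0.000583). Probe 732 had a lowest, median and highest level of 7105, 13969 and 30044 CPM in CEPT EB and of 4533, 9508 and 15049 CPM in Y27 EB, and 12 of 16 CEPT EB libraries exceeded the other arm's median. The log2 fold change of probe 732 was 0.67 ± 0.20 (SE, n = 16 per arm, adjusted p = 0.0103). Scaled on the reference genes GAPDH and PGK1 it was 0.54 and no longer called (adjusted p = 0.145), nor was it with the replicate number as a block (0.64, adjusted p = 0.0519). Without CEPT EB 13 and Y27 EB 15 the log2 fold changes were 0.80 and 0.70, both called (adjusted p = 0.00149 and 0.0117).

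TM4SF1, the tetraspan membrane protein, was read with low counts. Probe 1149 had a lowest, median and highest level of 0, 16.7 and 42.0 CPM in CEPT EB and of 0, 3.08 and 6.44 CPM in Y27 EB, with medians of 58 and 14 reads. Most CEPT EB libraries were above every Y27 EB library, but CEPT EB 4 and CEPT EB 13 held no read, while 3 Y27 EB libraries held none. The means were 17.4 ± 11.7 and 2.74 ± 1.93 CPM (SD, n = 16 each), 14 of 16 CEPT EB libraries exceeded the other arm's median, and the log2 fold change was 2.73 ± 0.56 (SE, adjusted p = 0.000553). Without CEPT EB 13 and Y27 EB 15 it was 2.88 (adjusted p = 0.000117). Probes 1148 and 1150 were under the filter in the fit of the EB libraries. Probe 1148 averaged 2.88 CPM in CEPT EB, with 5 libraries at 0 reads, and 0.339 CPM in Y27 EB, with 12 at 0. It passed the filter in the fit of all 48 libraries only through its CEPT EB reads (median 12.5, and 0 in each other group). Its call there for CEPT EB against Y27 EB (log2 fold change 2.87 ± 0.79, SE, adjusted p = 0.00522) is thus no separate support. Probe 1150 averaged 0.795 and 0.270 CPM, with 8 and 14 libraries at 0. As 3 reads were worth 0.551 to 1.43 CPM in CEPT EB and 0.414 to 6.44 CPM in Y27 EB, little can be read from probe 1150 at this depth.

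Markers of epithelium moved in the same direction as TM4SF1. Of the 6 epithelial probes tested, 3 were called higher in CEPT EB and 0 lower, all of them in EPCAM, an adhesion molecule of epithelium and of stem cells. EPCAM probe 223 averaged 112 ± 103 CPM in CEPT EB and 39.8 ± 27.9 CPM in Y27 EB (SD, n = 16 each), with a log2 fold change of 1.51 ± 0.36 (SE, adjusted p = 0.00250). The 3 KRT18 probes, for a keratin of simple epithelium, were not called, with log2 fold changes of 0.40, 0.63 and 0.43. The summed epithelial level had a lowest, median and highest value of 102, 291 and 1333 CPM in CEPT EB, 37.1, 125 and 780 CPM in Y27 EB, and 4758 to 5173 CPM in hESC. Endothelial markers had 4 probes tested and 0 called. They summed to a median of 26.8 CPM (3.80 to 52.3) in CEPT EB and 21.3 CPM (10.8 to 185) in Y27 EB. A probe of PECAM1, a defining gene of endothelium, had 0 reads in every library of all 6 groups. That probe therefore cannot show whether endothelium was present in the EBs. Another PECAM1 probe held reads in both arms. The part of other cell types in the TM4SF1 and TMSB10 differences was not tested.

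CYR61, the YAP target that encodes a secreted protein, was low in both arms. Probe 1175 had a lowest, median and highest level of 23.7, 39.3 and 85.7 CPM in CEPT EB and of 8.18, 26.5 and 129 CPM in Y27 EB. The highest Y27 EB value was that of Y27 EB 15, and 13 of 16 CEPT EB libraries exceeded the other arm's median. With all libraries the log2 fold change was 0.49 ± 0.26 (SE, n = 16 per arm, adjusted p = 0.168) and was not called. Without Y27 EB 15 alone it was 0.74 (adjusted p = 0.00803), and without Y27 EB 15 and CEPT EB 13 it was 0.79 (adjusted p = 0.00483), so that 1 library decided this call. Probes 1176 and 1177 had log2 fold changes of 0.31 ± 0.36 and 0.66 ± 0.64 (SE, adjusted p = 0.606 and 0.528). Probe 1177 held no read in 2 CEPT EB and 4 Y27 EB libraries.

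ACTB levels of the arms lay close together. Probe 7 had a lowest, median and highest level of 9202, 11461 and 17171 CPM in CEPT EB and of 9479, 11446 and 16628 CPM in Y27 EB, so the arms spanned nearly the same range. Its log2 fold change was 0.01 ± 0.10 (SE, n = 16 per arm, adjusted p = 0.932), and 2 SE each way spans -0.19 to 0.21. Probes 5 and 6 had log2 fold changes of 0.07 ± 0.10 and -0.03 ± 0.09 (SE, adjusted p = 0.688 and 0.841). With library totals alone as the scale, probe 6 was at -0.33 and was called lower (adjusted p = 0.0472), a setting in which the median of all probes moved by -0.31.

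TAGLN, the contractile-cell gene, was not called either, with a wider range among Y27 EB libraries. Probe 1266 had a lowest, median and highest level of 37.1, 159 and 225 CPM in CEPT EB and of 74.1, 125 and 326 CPM in Y27 EB. Its log2 fold change was 0.21 ± 0.20 (SE, n = 16 per arm, adjusted p = 0.511). Probes 1267 and 1268 gave 0.02 ± 0.28 and 0.20 ± 0.30 (SE, adjusted p = 0.953 and 0.686). In CEPT EB 13, probe 1267 was at 0.475 CPM. Smooth muscle and cardiac markers summed to 4.68 CPM (0.475 to 33.7) in CEPT EB and 9.70 CPM (1.52 to 232) in Y27 EB as median and range, and the 1 probe tested, for TNNT2 of cardiac muscle, was not called.

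**Figure D1:**
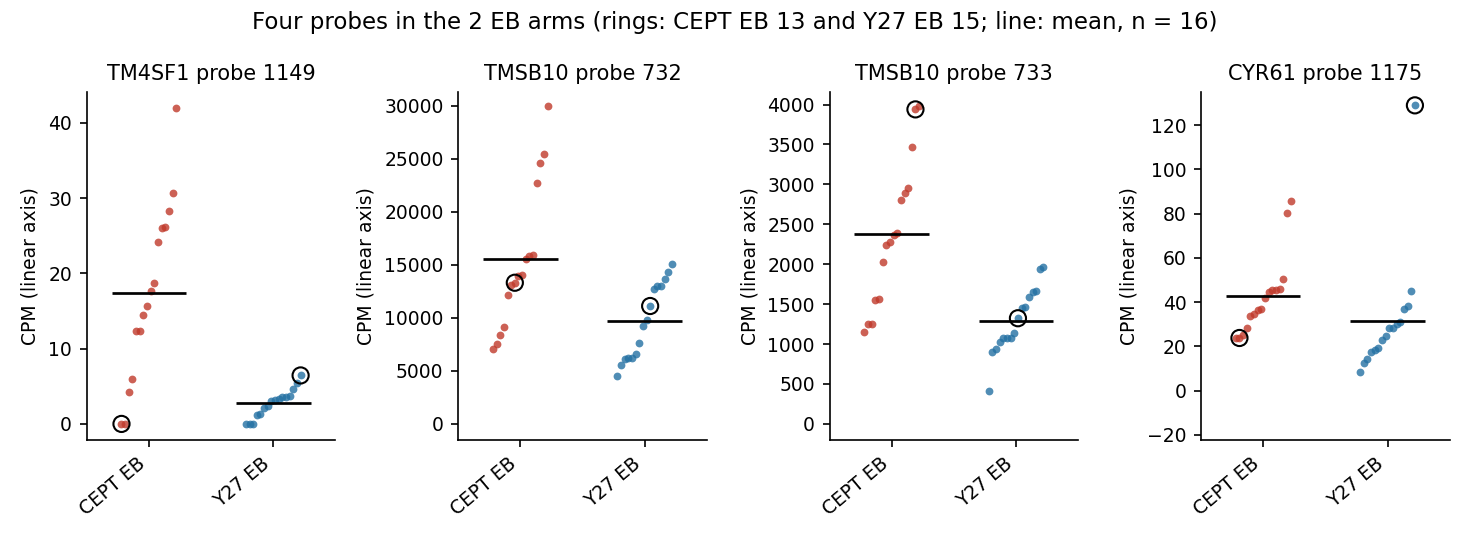
Level in CPM (linear axis) of TM4SF1 probe 1149, TMSB10 probes 732 and 733 and CYR61 probe 1175 in CEPT EB and Y27 EB, 1 point per library sorted by value, with the mean as a black line (n = 16 per arm) and rings around CEPT EB 13 and Y27 EB 15. The TMSB10 and TM4SF1 means are higher in CEPT EB with overlapping arms, the ringed CEPT EB 13 holds no TM4SF1 read, and the ringed Y27 EB 15 is the highest CYR61 point at 129 CPM.

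Against undifferentiated hESC, both EB arms had less ACTB, TAGLN and CYR61 and more TMSB10, except that on the reference-gene scale ACTB probe 5 turned in both arms and TAGLN probe 1267 in Y27 EB. The arms share the 4 hESC libraries, so their values are given side by side. In CEPT EB 13 of 14 probes were tested and 13 of 13 were called, 4 higher and 9 lower, where 73.4% of all 940 probes were called, 42.2% higher and 31.2% lower. In Y27 EB 12 were tested and 11 called, 2 higher and 9 lower, where 74.1% of all 963 probes were called, 41.5% higher and 32.6% lower. For 9 probes in CEPT EB and 8 in Y27 EB no library overlapped with hESC, beside 57.3% and 56.2% of all probes. The members' median log2 fold changes were -1.05 (CEPT EB) and -1.39 (Y27 EB), beside 0.47 and 0.39 over all probes. Both shares called lie above the background, but most of the panel moved as well.

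The hESC levels of ACTB probe 7 were 41845, 40884, 39023 and 40083 CPM. All were above the highest EB library, at 17171 CPM. The log2 fold change was -1.48 ± 0.14 in CEPT EB (SE, adjusted p = 1.77e-09) and -1.53 ± 0.12 in Y27 EB (SE, adjusted p = 7.82e-11). Probe 6 gave -1.48 and -1.49, both called. Probe 5, the one nearest to the 3′ end, gave only -0.43 ± 0.17 in CEPT EB (SE, adjusted p = 0.0259) and -0.54 ± 0.12 in Y27 EB (SE, adjusted p = 0.000255). Its hESC levels were 11715, 14584, 13879 and 13785 CPM, and the EB libraries ran from 5583 to 14123 CPM. With the reference genes as the scale, probes 6 and 7 were between -0.33 and -0.41 in both arms and probe 5 turned to 0.64 and 0.61, none of them called, so the decrease of ACTB rests on the scale used. That scale moved the panel's median log2 fold change by 1.02 in CEPT EB and 1.11 in Y27 EB. Probes 6 and 7 kept direction and call in 11 of 12 alternative settings in CEPT EB and 12 of 13 in Y27 EB. For probe 5 the call in CEPT EB was also lost with library total as covariate (-0.12, adjusted p = 0.516), with at least 10 reads in every library (-0.36, adjusted p = 0.0562) and with library totals alone as the scale (-0.38, adjusted p = 0.172), the last of which ended the call in Y27 EB too (-0.16, adjusted p = 0.421).

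For TAGLN the hESC levels of probe 1266 were 438, 516, 442 and 440 CPM, above every EB library (highest 326 CPM). The log2 fold change was -1.27 ± 0.22 in CEPT EB (SE, adjusted p = 2.32e-05) and -1.51 ± 0.29 in Y27 EB (SE, adjusted p = 7.58e-05). Probes 1267 and 1268 gave -1.05 and -1.05 in CEPT EB and -1.10 and -1.29 in Y27 EB, all called. In CEPT EB those calls rest on single libraries. Probe 1267 was uncalled without hESC 2 (-1.06, adjusted p = 0.0500) and without hESC 4 (-1.04, adjusted p = 0.0557). Probe 1268 was uncalled without hESC 2, hESC 4, CEPT EB 8 or CEPT EB 14 (adjusted p = 0.0842, 0.0728, 0.0526 and 0.0532), and with library total as covariate (adjusted p = 0.0748). With the reference genes as the scale no TAGLN probe was called in either arm, at -0.24, -0.02 and -0.07 in CEPT EB and -0.35, 0.07 and -0.16 in Y27 EB, the second of which turned its direction.

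For CYR61 the hESC levels of probe 1175 were 204, 220, 193 and 189 CPM, and the highest EB library, Y27 EB 15, was at 129 CPM. The log2 fold change was -2.00 ± 0.24 in CEPT EB (SE, adjusted p = 8.71e-08) and -2.52 ± 0.40 in Y27 EB (SE, adjusted p = 6.29e-06). The groups did not overlap for this probe. Probes 1176 and 1177 gave -1.74 and -2.01 in CEPT EB and -2.09 and -2.70 in Y27 EB, all called (adjusted p = 0.000979, 0.00396, 0.000274 and 0.0109). With the reference genes as the scale these 4 values kept their direction and were not called.

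TMSB10 went the other way. Its probe 732 had hESC levels of 4932, 4698, 4094 and 5182 CPM and EB medians of 13969 and 9508 CPM. Every CEPT EB library was above every hESC library, while the lowest Y27 EB library, at 4533 CPM, was within the hESC range. The log2 fold change was 1.97 ± 0.34 in CEPT EB (SE, adjusted p = 2.09e-05) and 1.25 ± 0.30 in Y27 EB (SE, adjusted p = 0.000724). Probe 733 had hESC levels of 228, 304, 268 and 369 CPM, and its log2 fold changes were larger, at 3.28 ± 0.35 in CEPT EB (SE, adjusted p = 1.79e-08) and 2.37 ± 0.31 in Y27 EB (SE, adjusted p = 3.92e-07).

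TM4SF1 was at the edge of detection outside the EBs. Probe 1149 was at 0.519, 0.418, 1.95 and 0 CPM in hESC, which is at most 3 reads. The mean levels of CEPT EB and Y27 EB were 10.8-fold and 1.70-fold the level that 3 reads would give in hESC. These ratios leave out the spread among libraries. By edgeR the log2 fold change was 4.84 ± 1.19 in CEPT EB (SE, adjusted p = 0.000895). In Y27 EB it was 2.11 ± 1.19 (SE, adjusted p = 0.113), with 2 SE each way spanning -0.26 to 4.48, and was called only on the reference-gene scale (adjusted p = 0.0366). For probe 1148 the CEPT EB mean was 1.78-fold that level, with a log2 fold change of 4.29 ± 1.60 (SE, adjusted p = 0.0193). The call was lost without hESC 2, hESC 3 or hESC 4 (adjusted p = 0.0653, 0.0573 and 0.0598) and with library total as covariate (adjusted p = 0.0737). In mesoderm and endoderm all 3 TM4SF1 probes had 0 reads in all 4 libraries, which allows up to 3 reads, or 0.969 to 1.42 CPM in mesoderm and 1.17 to 1.52 CPM in endoderm. In ectoderm probe 1149 was at 0, 0.685, 0.465 and 0 CPM.

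In the directed lineages TAGLN and most CYR61 probes rose, TMSB10 rose in mesoderm and endoderm, and ACTB rose in endoderm and fell in ectoderm and mesoderm, where it turned on the reference-gene scale. Of the 14 probes 11 were tested, the 3 TM4SF1 probes being under the filter. In ectoderm 9 of 11 were called, 6 higher and 3 lower, beside 81.7% of all 903 probes (43.2% higher and 38.5% lower), and 9 did not overlap with hESC, beside 78.2%. In mesoderm 10 of 11 were called, 7 higher and 3 lower, beside 77.5% (34.0% higher and 43.5% lower), and 8 did not overlap, beside 70.8%. In endoderm 11 of 11 were called, all higher, beside 78.2% in either direction and 38.4% higher, and 11 did not overlap, beside 73.9%. In ectoderm the members' share called was thus at the background. The members' median log2 fold changes were 0.94, 0.66 and 1.35 in ectoderm, mesoderm and endoderm, beside 0.14, -0.18 and 0.00 over all probes. These 3 comparisons also share the hESC libraries.

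TAGLN probe 1266 was at 2409, 2356, 2116 and 2866 CPM in ectoderm, at 4332, 4371, 4126 and 4581 CPM in mesoderm and at 18663, 18044, 17216 and 21920 CPM in endoderm. Each lineage lay wholly above hESC, and the lineages did not overlap with each other. Its log2 fold change was 2.48 ± 0.09 in ectoderm, 3.00 ± 0.10 in mesoderm and 5.30 ± 0.11 in endoderm (SE, n = 4 per group; adjusted p = 1.05e-14, 1.13e-15 and 3.90e-18). The other TAGLN probes gave the same picture, at 2.37 and 2.36, 3.00 and 3.00, and 5.26 and 5.25. Markers of the neural crest and mesenchyme list, where TAGLN is also known, summed to 620 to 705 CPM in hESC, 4075 to 4687 CPM in ectoderm, 32599 to 36039 CPM in mesoderm and 5460 to 5859 CPM in endoderm. Their sum was thus highest in mesoderm, while TAGLN was highest in endoderm. Of 3 smooth muscle and cardiac probes tested, 1 was called higher and 0 lower in ectoderm, 2 higher and 1 lower in mesoderm, and 0 higher and 1 lower in endoderm. The part of these cell types in the TAGLN values was not tested.

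ACTB split the lineages. Probe 7 was at 22450, 23761, 25313 and 19005 CPM in ectoderm, at 28015, 28826, 32175 and 26980 CPM in mesoderm and at 58045, 53672, 55461 and 50392 CPM in endoderm. Ectoderm and mesoderm lay below every hESC library and endoderm above. The log2 fold changes were -0.75 ± 0.10, -0.72 ± 0.10 and 0.37 ± 0.09 (SE, n = 4 per group; adjusted p = 6.16e-07, 1.44e-06 and 0.00175), and probes 5 and 6 had the same signs, at -0.75 and -0.76, -0.49 and -0.65, and 0.78 and 0.47. With the reference genes as the scale the ectoderm values turned to 1.16, 1.13 and 1.14 for probes 5, 6 and 7, all called, and the mesoderm values to 0.39, 0.18 and 0.12, none called. The endoderm calls of probes 6 and 7 were lost with library totals alone (0.17 and 0.07) and with upper-quartile scaling (0.12 and 0.02). In mesoderm, probe 5 was at 12878, 12385, 8264 and 11713 CPM, and without the third library its log2 fold change was -0.19 (adjusted p = 0.0593).

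TMSB10 rose in mesoderm and endoderm. Probe 732 was at 9768, 8838, 12126 and 8744 CPM in mesoderm and at 20219, 18434, 20445 and 22753 CPM in endoderm, wholly above hESC, and at 3986, 3659, 4234 and 4693 CPM in ectoderm, where it overlapped with hESC. The log2 fold changes were 0.82 ± 0.10 in mesoderm and 2.04 ± 0.10 in endoderm (SE, n = 4 per group; adjusted p = 3.21e-07 and 5.49e-13). In ectoderm neither probe was called, at -0.11 ± 0.10 and -0.38 ± 0.26 (SE, adjusted p = 0.301 and 0.196), while with the reference genes as the scale both were called higher, at 1.81 and 1.58. Probe 733 was called lower in ectoderm with library total as covariate (-0.68, adjusted p = 0.0300) and with the replicate block (-0.39, adjusted p = 0.0150), so its direction there depends on the setting. It was at 699, 552, 314 and 609 CPM in mesoderm, with a log2 fold change of 0.66 ± 0.26 (SE, adjusted p = 0.0285) that was uncalled without hESC 1, hESC 3 or mesoderm 1 (adjusted p = 0.0832, 0.0657 and 0.0916) and with library total as covariate (0.24, adjusted p = 0.454).

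CYR61 was higher in each lineage by the fit of control libraries. Probe 1175 was at 369, 368, 335 and 395 CPM in ectoderm, at 300, 344, 271 and 342 CPM in mesoderm and at 425, 428, 385 and 444 CPM in endoderm, and all 12 values exceeded those of hESC. Its log2 fold changes were 0.94 ± 0.10 in ectoderm, 0.40 ± 0.10 in mesoderm and 0.99 ± 0.10 in endoderm (SE, n = 4 per group; adjusted p = 5.88e-08, 0.00133 and 3.06e-08). Probes 1176 and 1177 were called in ectoderm (1.16 and 0.95) and endoderm (1.35 and 1.16). In mesoderm probe 1176 was called (0.92) and probe 1177 was not (0.28, adjusted p = 0.110). Probe 1177 became called without ectoderm 1, ectoderm 2, mesoderm 2 or mesoderm 3 (adjusted p = 0.0181, 0.0206, 0.0183 and 0.0030), and with median-ratio, library-total or reference-gene scaling, DESeq2, either other filter or the replicate block (0.36 to 1.15, adjusted p = 0.000287 to 0.0479). In a fit of all 48 libraries, no CYR61 probe was called in ectoderm (0.86, 1.07 and 0.87) or mesoderm, and in endoderm probe 1177 was not called (1.23, adjusted p = 0.277).

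**Figure D2:**
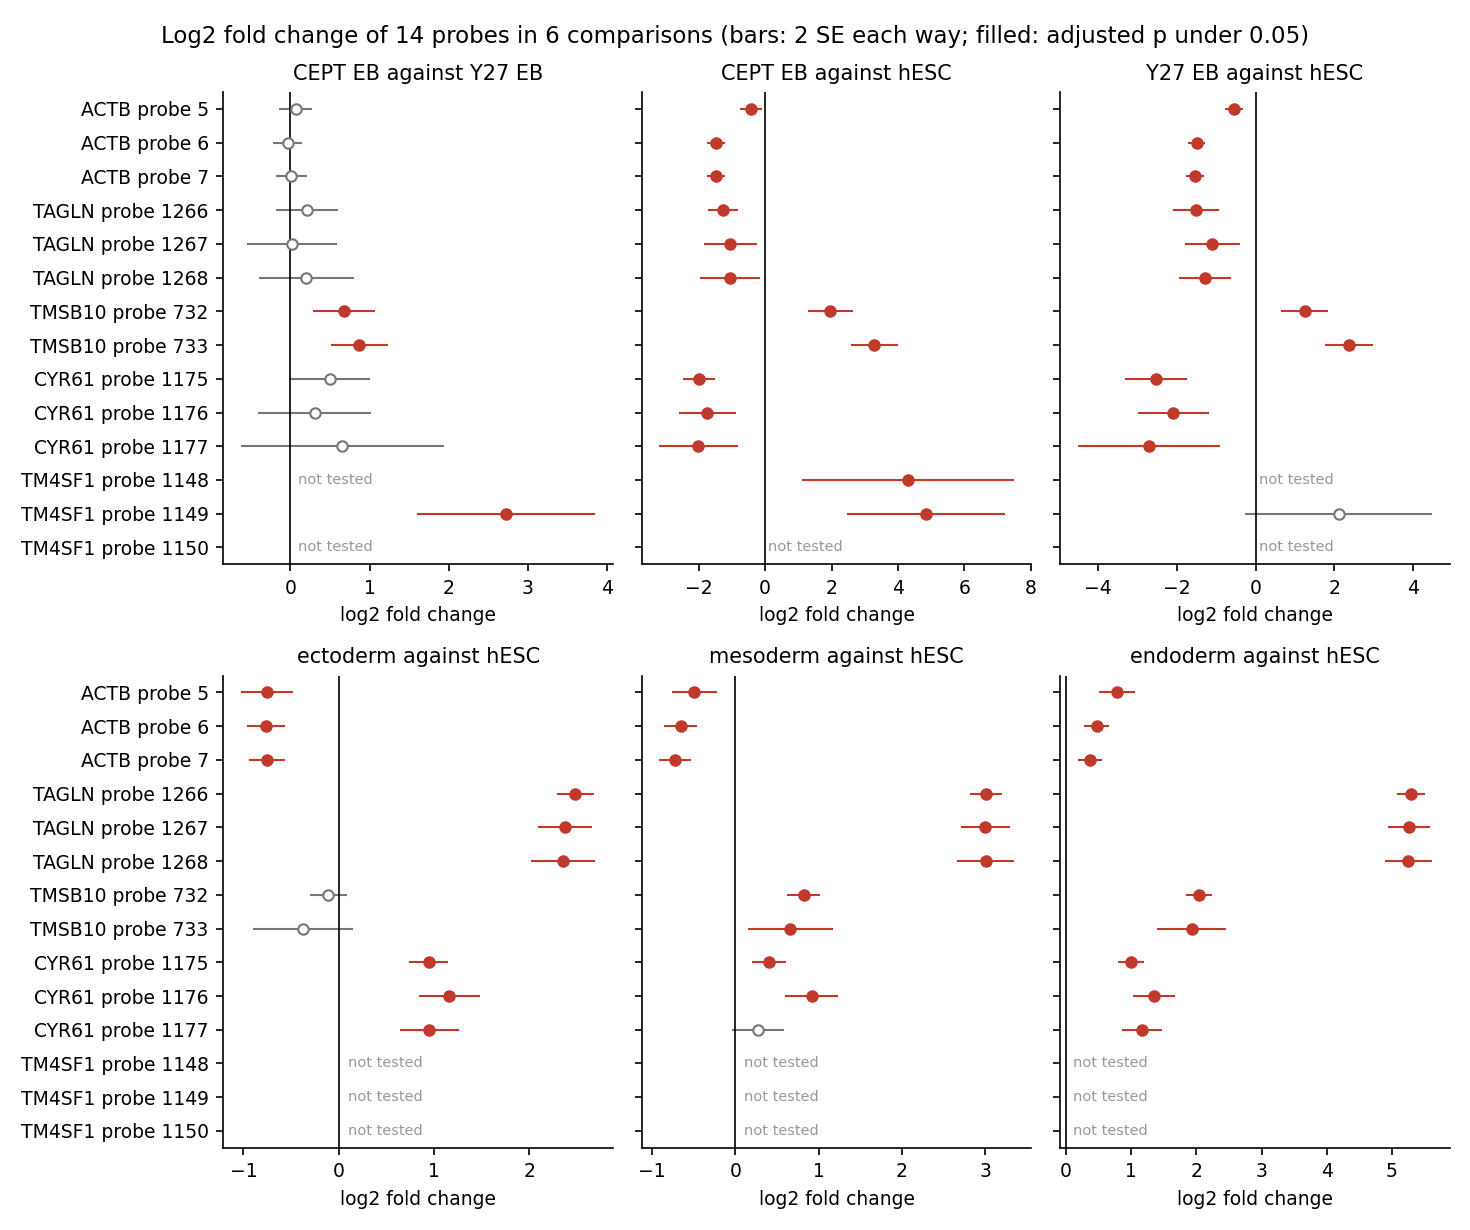
Log2 fold change (x axis) of the 14 probes (y axis) in 6 comparisons from edgeR, with bars of 2 SE each way and filled red points for an adjusted p under 0.05. TMSB10 is to the right of 0 in both EB arms while TAGLN and CYR61 are to the left, TAGLN is far to the right in the lineages, and the ACTB points left of 0 turned with reference-gene scaling in ectoderm and mesoderm and for probe 5 in the EBs, as did TAGLN probe 1267 in Y27 EB.

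Over all 6 groups in 1 fit of 48 libraries and 1016 probes, the highest probes of the 5 genes had different orders. Of all probes in that fit, 24.8% were called between the EB arms. CEPT EB against hESC, ectoderm, mesoderm and endoderm had 71.4%, 71.4%, 71.7% and 77.4% called, and Y27 EB against hESC and mesoderm 70.8% and 69.3%. Among the control groups the share was 62.7%, 53.1% and 56.0% for hESC against ectoderm, mesoderm and endoderm, and 61.0%, 61.7% and 57.8% for ectoderm against mesoderm, ectoderm against endoderm and mesoderm against endoderm, so a called step is the usual outcome for a panel probe. For ACTB probe 7 the order was endoderm, hESC, mesoderm, ectoderm, CEPT EB and Y27 EB. The neighbours not called were mesoderm and ectoderm (log2 0.36, adjusted p = 0.0518) and both EB arms (0.02, adjusted p = 0.869). This fit shares the spread of a probe over all 48 libraries, EBs included, so groups without overlap can be uncalled. Mesoderm (26980 to 32175 CPM) and ectoderm (19005 to 25313 CPM) did not overlap. By probe 5 the ectoderm mean (7582 CPM) was under those of CEPT EB (8421) and Y27 EB (7954), neither called (adjusted p = 0.339 and 0.678). For TAGLN probe 1266 the order was endoderm, mesoderm, ectoderm, hESC, CEPT EB and Y27 EB, and every step was called except that between the EB arms (0.22, adjusted p = 0.403). For TMSB10 probe 732 it was endoderm, CEPT EB, mesoderm, Y27 EB, hESC and ectoderm. There the steps between endoderm and CEPT EB (0.40, adjusted p = 0.175), mesoderm and Y27 EB (0.03, adjusted p = 0.930) and hESC and ectoderm (0.19, adjusted p = 0.663) were not called. TMSB10 probe 733 gave another order. By it CEPT EB was above endoderm (1.02, adjusted p = 0.00170) and Y27 EB above mesoderm (1.25, adjusted p = 0.000267), both called. Y27 EB against endoderm was not called by that probe (0.14, adjusted p = 0.645). For CYR61 probe 1175 the 4 control groups lay above both EB arms, and the step from hESC down to CEPT EB was the only one called (2.24, adjusted p = 1.21e-08). Mesoderm against hESC was uncalled in this fit (0.64 ± 0.44, SE, adjusted p = 0.226) but called in the fit of control libraries (0.40 ± 0.10, SE, adjusted p = 0.00133). For TM4SF1 probe 1149 CEPT EB came first and its step to Y27 EB was the only one called (2.73, adjusted p = 0.000411). Of the 25 steps 11 were called, and 8 to 11 were under the other scalings and without the shallowest library. The reference-gene scale turned and called 2 of them, mesoderm against ectoderm for ACTB and hESC against ectoderm for TMSB10.

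**Figure D3:**
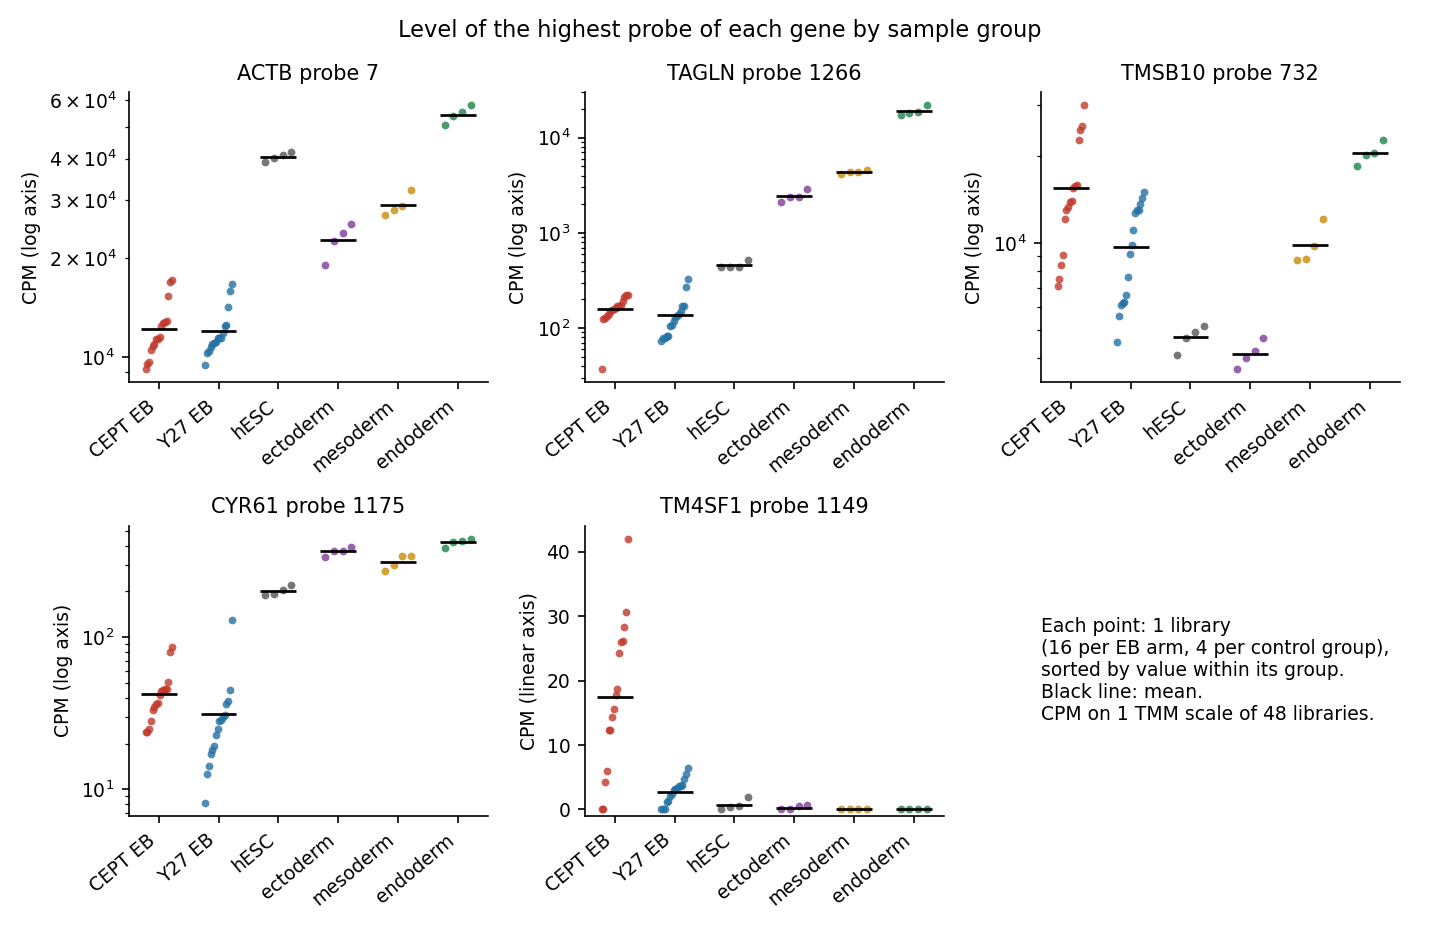
Level in CPM of the highest probe of each gene in the 6 groups, 1 point per library (16 per EB arm, 4 per control group) with the mean as a black line, on log axes except for TM4SF1, which has a linear axis. TAGLN, CYR61 and ACTB are lowest in the EB arms on this scale (the ACTB and TAGLN differences from hESC are not called on the reference-gene scale), the TMSB10 means of the EBs lie between those of hESC and endoderm, and TM4SF1 exceeds 6.44 CPM in CEPT EB libraries only.

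Probes of the same gene did not move by equal amounts in the EBs. The ratio of 2 probes within a library does not depend on the scaling, and 27 such ratio comparisons were tested after the values had been seen, with p adjusted over them. The reads of ACTB probe 5, the nearest to the 3′ end, were 33.4% ± 3.65 of those of probe 7, the farthest from it, in hESC (SD, n = 4, 28.0 to 35.7%). They were 68.9% ± 7.31 in CEPT EB (SD, n = 16, 60.6 to 83.9%) and 66.7% ± 5.45 in Y27 EB (SD, n = 16, 52.2 to 73.7%). No EB library overlapped with hESC. The log2 ratio differed by 1.04 in CEPT EB and 1.00 in Y27 EB (exact two-sided permutation p = 0.000413, the smallest that 16 against 4 libraries can give, adjusted p = 0.00186). Ectoderm was at 33.7%, mesoderm at 39.5% and endoderm at 44.5%, all under the lowest EB library. Endoderm, at 38.4 to 47.7%, also lay wholly above hESC, while ectoderm (30.4 to 36.8%) and mesoderm (25.7 to 46.0%) overlapped with it. Between the EB arms the difference was 0.05 (permutation p = 0.360, adjusted p = 0.465).

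ACTB probe 6, which lies between them, kept nearly the same ratio to probe 7 in all 6 groups, with means of 69.8% to 75.3%. In CEPT EB it differed from hESC by 0.00 on the log2 scale (exact permutation, adjusted p = 0.914) and in Y27 EB by 0.04 (adjusted p = 0.257). TMSB10 had a shift like that of ACTB probe 5. The reads of probe 733 were 6.19% ± 1.08 of those of probe 732, which lies farther from the 3′ end, in hESC (SD, n = 4). They were 16.2% ± 5.22 in CEPT EB (10.4 to 29.6%) and 13.7% ± 2.58 in Y27 EB (9.16 to 18.2%, SD, n = 16 each). Again no EB library overlapped with hESC, and the lineage means were 5.19% to 5.74%. The log2 ratio differed from hESC by 1.35 in CEPT EB and 1.14 in Y27 EB (exact permutation, adjusted p = 0.00186 for both) and between the arms by 0.20 (permutation p = 0.119, adjusted p = 0.189). For TAGLN probes 1267 and 1266 and CYR61 probes 1176 and 1175 the ratio was not called in any of the comparisons. Thus the size of the ACTB and TMSB10 differences between EBs and hESC depends on the probe, by 1.04 and 1.35 on the log2 scale in CEPT EB. The cause was not tested.

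**Figure D4:**
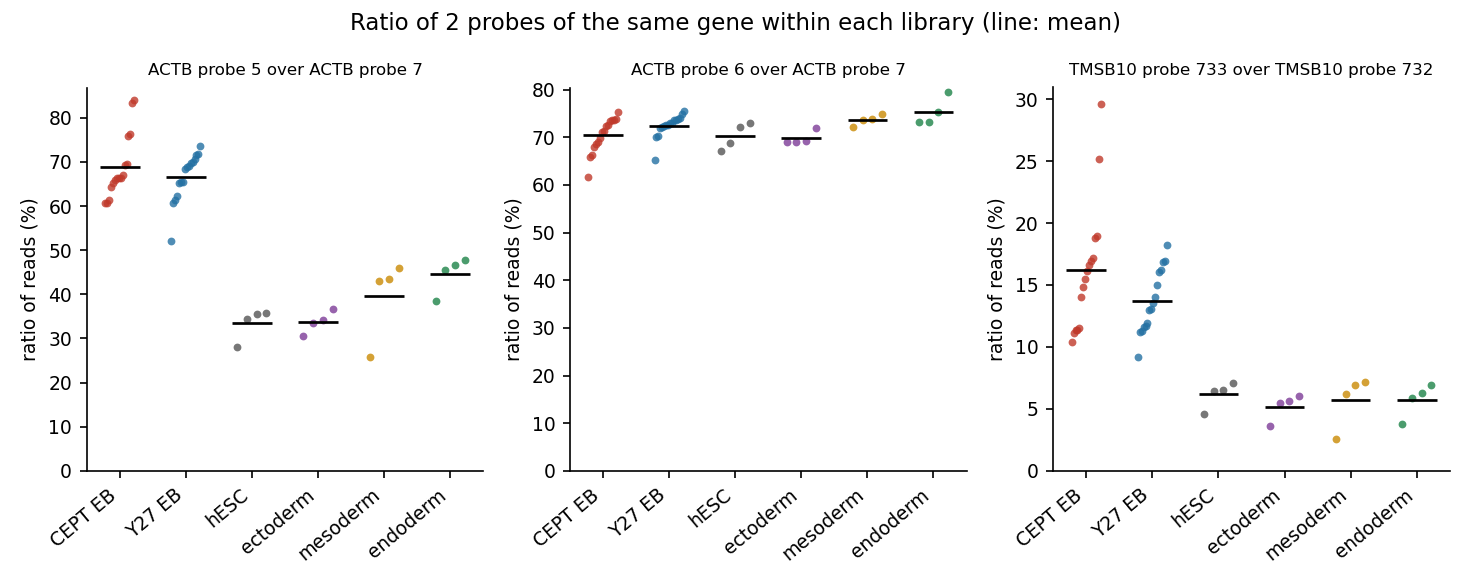
Ratio of the reads of 2 probes of the same gene within each library in percent (y axis from 0), for ACTB probes 5 and 7, ACTB probes 6 and 7 and TMSB10 probes 733 and 732, by group, 1 point per library with the mean as a line. The EB libraries lie above all hESC libraries in the first and last panel and at the same height as hESC in the middle panel.

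Among the EB libraries both ratios varied together. Over the 16 CEPT EB libraries the log2 ratios of ACTB probes 5 and 7 and of TMSB10 probes 733 and 732 correlated with r = 0.82 (permutation p = 0.00019, adjusted over 2 tests 0.00019) and rho = 0.76 (p = 0.00095). Without the 2 libraries farthest from the median r was 0.59, and without CEPT EB 13 it was 0.75. Over the 16 Y27 EB libraries r was 0.90 (permutation p = 1e-05, the smallest 100000 resamples can give, adjusted 2e-05) and rho 0.94, with r = 0.87 without the 2 farthest. With the log10 library total, the ACTB and TMSB10 ratios correlated at r = -0.66 and -0.70 in CEPT EB and 0.05 and 0.15 in Y27 EB. The third mesoderm library, low in ACTB probe 5, was also the lowest of its group in both ratios.

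**Figure D5:**
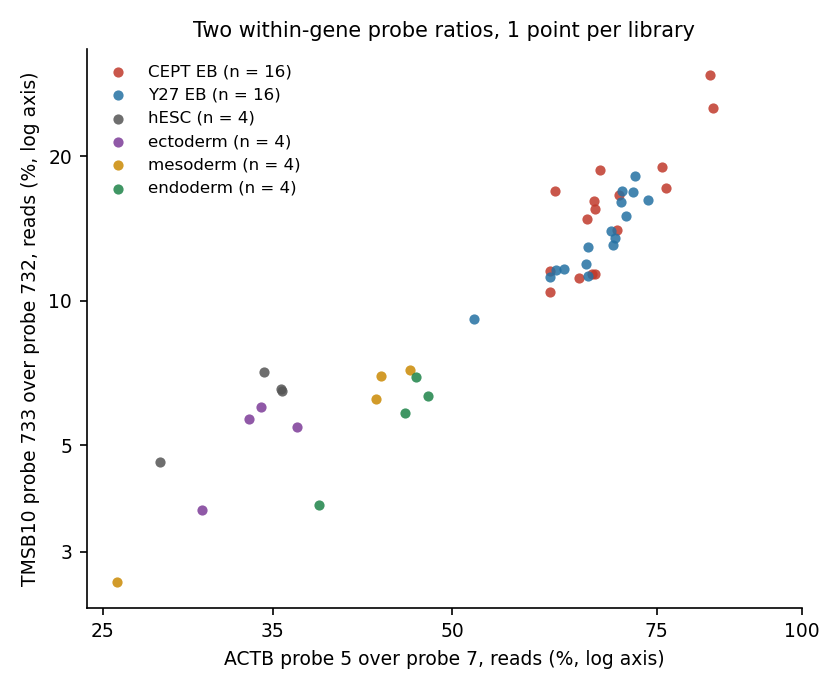
Reads of TMSB10 probe 733 as a percentage of probe 732 (y, log axis) against reads of ACTB probe 5 as a percentage of probe 7 (x, log axis), 1 point per library, coloured by group. The EB libraries form a rising band at the upper right, with r = 0.82 in CEPT EB and 0.90 in Y27 EB, and the control libraries lie at the lower left.

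Ratios between genes within a library, for which only differences between groups can be read, gave the members' changes relative to ACTB probe 7. TMSB10 probe 732 over ACTB probe 7 differed from hESC by 3.35 in CEPT EB and 2.71 in Y27 EB on the log2 scale (exact permutation, adjusted p = 0.00186 for both). TAGLN probe 1266 over ACTB probe 7 differed by 0.15 and -0.09 (exact permutation, adjusted p = 0.577 and 0.843). CYR61 probe 1175 over ACTB probe 7 differed by -0.58 and -1.21, not past the threshold (exact permutation, adjusted p = 0.148 and 0.0659). Between the arms TM4SF1 over ACTB differed by 2.55 (permutation, adjusted p = 0.0134) and TMSB10 over ACTB by 0.64 (permutation p = 0.0203, adjusted p = 0.0610). CYR61 over ACTB differed by 0.62 and TAGLN over ACTB by 0.24, neither past the threshold (permutation, adjusted p = 0.0795 and 0.465). Without CEPT EB 13 and Y27 EB 15 these 3 differences were 0.70, 0.86 and 0.48 for TMSB10, CYR61 and TAGLN, all past the threshold (permutation, adjusted p = 0.0412, 0.00318 and 0.0474), so whether they pass rests on those libraries. In the same setting CYR61 over ACTB differed from hESC by -1.36 in Y27 EB (exact permutation, adjusted p = 0.00174).

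Few pairs of members passed the threshold for varying together within an arm, which does not show that the rest vary independently. Of 20 pairs of genes, 10 in each arm, 1 passed with its Pearson r: TAGLN and CYR61 in Y27 EB, with r = 0.71 (permutation p = 0.00193, adjusted p = 0.0386, n = 16) and rho = 0.62 (adjusted p = 0.120). Without the 2 libraries farthest from the median TAGLN level r was 0.49, and Y27 EB 15, where both genes are high, left 0.61 when it was omitted (adjusted p = 0.120), so the call rests on that library. In CEPT EB the same pair had r = 0.58 (permutation p = 0.0198, adjusted p = 0.109) and rho = 0.68 (adjusted p = 0.101). TAGLN and TM4SF1 had r = 0.70 in CEPT EB (adjusted p = 0.0658 by permutation), which was 0.37 without the 2 farthest libraries. In Y27 EB that pair had r = 0.55 (permutation, adjusted p = 0.109), and 0.43 without the 2 farthest. ACTB and TMSB10 had r = -0.56 in CEPT EB (permutation, adjusted p = 0.109), -0.59 without the 2 farthest, and -0.23 in Y27 EB. With the log10 library total, CYR61 had r = -0.66 in Y27 EB and 0.12 in CEPT EB. TAGLN and TM4SF1 had r = 0.55 and 0.59 in CEPT EB, and -0.44 and -0.31 in Y27 EB. The sign thus differed between the arms for each of these genes, and no general relation with depth can be read. These r were not computed without the library of lowest total in each arm.

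Other panel genes with a similar pattern over the 6 group means were found by the root mean square difference of centred log2 CPM over 1003 probes. For ACTB these were CEBPA (0.19), DIAPH2 (0.22) and GSTP1 (0.24), where the median probe differed by 1.48. For TMSB10 they were LAMTOR2 (0.33), TXN (0.34) and MAP1B (0.37), beside a median of 1.49. For CYR61 they were MYO3B (0.49), TPD52L1 (0.58) and DIAPH2 (0.62), beside 2.02. TM4SF1 had SLC17A6 (0.49), RBM14 (0.52) and TPH1 (0.54) nearest, beside 2.02. TAGLN had no probe nearer than PALLD (1.29), KRT18 (1.32) and ROR2 (1.32), beside 2.93, so its pattern was the least shared of the 5. Several of these probes were near the floor, as 0 reads stand at a log2 CPM of -0.88. The group means of the probes matched to ACTB were 0.67 to 2.85 for CEBPA and 0.61 to 2.62 for DIAPH2. SLC17A6 was at -0.88 in ectoderm, mesoderm and endoderm. With 6 means a probe this close is a description only.

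Few other genes of these pathways were on the panel. Of 50 listed SRF and actin genes 2 were present, TMSB15A (thymosin beta 15A, a relative of TMSB10 that also binds actin monomers) and TPM1 (tropomyosin, which lines actin filaments). In CEPT EB against Y27 EB 3 of their 6 probes were called higher and 0 lower. All 3 were TMSB15A probes, with log2 fold changes of 1.17 ± 0.21, 1.14 ± 0.21 and 1.02 ± 0.23 (SE, n = 16 per arm; adjusted p = 0.000126, 0.000148 and 0.00111), while TPM1 was at -0.25, -0.20 and -0.05, not called. TMSB15A probe 734 averaged 29933 ± 14731 CPM in CEPT EB and 13244 ± 5869 CPM in Y27 EB (SD, n = 16 each). Against hESC 4 of the 6 were called higher in each arm and 0 lower, with TMSB15A at log2 4.75 to 4.83 in CEPT EB. Of all probes 42.2% were called higher in CEPT EB and 41.5% in Y27 EB. TMSB15A and TMSB10 are paralogs, and how far their probes share reads is uncertain. In ectoderm 6 of the 6 SRF and actin probes were called higher, in mesoderm 3 higher and 3 lower, and in endoderm 3 higher and 2 lower. The shares of all probes there were 43.2%, 34.0% and 38.4% higher and 38.5%, 43.5% and 39.8% lower.

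Of 32 listed YAP and TEAD genes 3 were present: YAP1 itself, WWTR1 (which encodes TAZ) and GADD45A, a stress-responsive gene. Of their 8 probes 1 was called higher in CEPT EB than in Y27 EB and 0 lower, GADD45A probe 297 at 0.34 ± 0.09 (SE, adjusted p = 0.00509). That count is near the share of all probes called higher, 10.6%. Against hESC 5 of the 8 were called higher in each EB arm and 0 lower, all of WWTR1 and GADD45A. Of all probes 42.2% were called higher in CEPT EB and 41.5% in Y27 EB. WWTR1 rose by 1.99, 2.44 and 2.67 on the log2 scale in CEPT EB while the 3 YAP1 probes, at 0.11, 0.08 and 0.25, were not called. In the lineages the counts were 3 higher and 3 lower in ectoderm, 8 higher in mesoderm and 6 higher in endoderm. The shares of all probes called higher were 43.2%, 34.0% and 38.4%. Cytoskeleton genes chosen after the panel had been seen, 10 genes with 26 probes, had 0 called higher and 1 lower between the arms.

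Of the remaining marker lists between the arms, neural crest and mesenchyme had 0 probes called higher and 7 lower in CEPT EB of 17 tested, and its summed level had a median of 9475 CPM in CEPT EB and 11531 CPM in Y27 EB. Stress genes had 4 higher and 0 lower of 11, of which 3 were probes of GDF15, a stress-induced cytokine. Ectoderm and neural genes had 3 higher and 2 lower of 15, and pluripotency genes 0 higher and 1 lower of 15. Mesoderm and endoderm lists had 0 called of 2 probes tested each.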

How the data were processed

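RASL-Seq libraries of WA09 cells were analysed in 48 samples and 6 groups taken from the labels. What was deposited is the raw count of reads for each probe, made by the authors with a custom aligner per the labels. The mismatches it allowed are not given in the sources used here. The submitters' processing notes name DESeq2 and hg38 without a role. A merged table repeated the counts in 48 identical columns, and 16 further columns matched no sample and were not used. Totals were 379810 to 5577868 reads.

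Low probes were left out (filterByExpr, by group), libraries were scaled by TMM, and tests used edgeR 4.0.16 (robust quasi-likelihood test, two-sided) in R 4.3.3, with Benjamini-Hochberg adjustment over all probes and a threshold of 0.05. The EB comparison used 32 libraries, the lineages shared a fit of the 16 control libraries, and each EB arm was fitted with hESC alone. The order of groups came from 1 fit of 48 libraries. Log2 CPM had a prior count of 2. Ratios of 2 probes had 0.5 reads added and were compared with permutation tests, exact for 16 against 4 libraries and with 100000 resamples otherwise. Folds against a group with at most 3 reads per library are the other group's mean over the level of 3 reads, without its spread. The tests were checked on simulated counts.

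Every probe of the 5 genes was named. The probe with the highest mean level stood for its gene, and the 3 genes of nearest pattern were named for each. Members and lists were chosen with earlier results of these data known, so neither is independent evidence. A further gene list is not reported here. The labels give the groups the same replicate numbers without saying what a number marks. Over 16 EB pairs of equal number, the deviations from the arm means correlated from r = -0.271 to 0.173 with 3 pairs over 0.1, so the numbers were not taken as pairs. Alternatives were other scalings (median-ratio, upper quartile, library totals, reference genes, all but the members), filters, DESeq2 1.42.0, 1 fit of all libraries, probes summed per gene, library total as covariate, a replicate block, and each library left out. Probe ratios, their correlation and the omission of CEPT EB 13 and Y27 EB 15 were added after seeing the data. Gene models were those of GENCODE 29. Python 3.11.15, scipy 1.17.1 and matplotlib 3.10.9 were used.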

Additional observations from a re-analysis of the deposited data

Results flagged for a closer look

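Of 76 combinations of a control group with a member probe or probe ratio, 8 (10.5%) held a library whose gap to its nearest neighbour, divided by the range of the 4 libraries, exceeded Dixon's critical value. Chance flags about 5% of such groups. In hESC, CYR61 probe 1177 was at 40.5 CPM in replicate 1 (others 33.2 to 34.4) and TAGLN probe 1266 at 516 CPM in replicate 2 (others 438 to 442). The log2 ratio of ACTB probes 5 and 7 was -1.84 in hESC replicate 1 (others -1.54 to -1.49). Mesoderm replicate 3 stood apart in 3 values: 165 CPM for CYR61 probe 1176 (others 108 to 111), a log2 ratio of -1.96 for ACTB probes 5 and 7 (others -1.22 to -1.12) and a log2 ratio of -5.27 for TMSB10 probes 733 and 732 (others -4.00 to -3.80). In ectoderm replicate 4 the log2 ratio of ACTB probes 6 and 7 was -0.47 (others -0.54 to -0.53), and in endoderm replicate 4 ACTB probe 6 was at 36853 CPM (others 41793 to 42687).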

How the results depend on the processing

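Scaling was the choice on which most values turned. With reference-gene scaling the panel's median log2 fold change shifted by 1.90, 0.85 and 1.59 in ectoderm, mesoderm and endoderm and by 1.02 and 1.11 in CEPT EB and Y27 EB against hESC, and raised the share of higher among called probes to 83.6%, 69.7%, 80.8%, 81.0% and 81.8%. On it ACTB turned to 1.16, 1.13 and 1.14 (probes 5, 6, 7) and TMSB10 to 1.81 and 1.58 in ectoderm, ACTB to 0.39, 0.18 and 0.12 in mesoderm, ACTB probe 5 to 0.64 in CEPT EB and 0.61 in Y27 EB, and TAGLN probe 1267 to 0.071 in Y27 EB. It left 5 and 4 members called in CEPT EB and Y27 EB against hESC. Between the arms the share of higher calls was 44.9%, and 14.2% with library totals alone, 58.8% with median-ratio scaling, 60.5% with DESeq2 and 64.8% with reference genes, and the called probes of the panel numbered 205, 339 with totals and 54 with reference genes.

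Between the arms, values near 0 changed sign: ACTB probe 6 (0.046 with median-ratio scaling and DESeq2, 0.0095 with upper quartiles, 0.037 with at least 10 reads), TAGLN (-0.084, -0.26 and -0.12), ACTB probes 5 and 7 (-0.22 and -0.28) and CYR61 probe 1176 (-0.00093) with totals alone, TAGLN probe 1267 (-0.091) and ACTB probe 7 (-0.026) with reference genes, and ACTB probes 5 and 7 (-0.0029 and -0.030) without CEPT EB 13 and Y27 EB 15. In ectoderm TMSB10 probe 732 was 0.045 with median-ratio scaling and DESeq2, 0.0068 with totals and 0.067 without a filter. The ratio of TAGLN probes 1267 and 1266 in CEPT EB against hESC was 0.11 with 5 reads added and 0.23 without both libraries, and that of CYR61 probes 1176 and 1175 -0.061.

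Members called numbered 3, 4, 4, 5 and 4 genes in ectoderm, mesoderm, endoderm, CEPT EB and Y27 EB when probes were summed per gene, and 6 in CEPT EB with at least 10 reads in every library, since fewer features were tested. Without CEPT EB 13 and Y27 EB 15, 4 members were called between the arms. Of the 20 gene pairs 5 passed with totals alone and 0 without the shallowest library. Leaving out 1 library gave 3 to 4 members called between the arms, 10 to 13 in CEPT EB, 11 to 11 in Y27 EB, 9 to 9 in ectoderm, 9 to 11 in mesoderm and 11 to 11 in endoderm. Over those omissions ACTB probes 6 and 7 ran from -0.062 to 0.015 and -0.026 to 0.066 and TAGLN probe 1267 from -0.076 to 0.14 between the arms, and TMSB10 probe 732 in ectoderm from -0.19 to 0.090. The ratios against hESC in CEPT EB ran from -0.020 to 0.020 (ACTB 6 and 7), -0.12 to 0.10 (TAGLN) and -0.085 to 0.11 (CYR61).

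With the replicate block 167 probes were called between the arms, TMSB10 probe 732 was at 0.64 (adjusted p = 0.0519), TMSB10 probe 733 in ectoderm became called (-0.39, adjusted p = 0.0150) and CYR61 probe 1177 in mesoderm too (0.41, adjusted p = 0.0479); 1 of 16 pairs correlated best with its own number. With library total as covariate, ACTB probe 5 (-0.12, adjusted p = 0.516), TAGLN probe 1268 and TM4SF1 probe 1148 lost their calls in CEPT EB against hESC. Beside the omissions, 907 values of named probes and ratios kept direction and side of the threshold, 35 lost a call, 22 gained one and 32 changed direction; the causes were not tested. Depth limits TM4SF1, CYR61 probe 1177 and TAGLN probe 1268 most, where EB libraries held few or 0 reads.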
